A study of Mus musculus with 71 samples.

Results

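The 8 libraries described here are the T0 samples of a SLAM-seq series of 71 libraries, chosen by their labels: 4 from cells given the METTL3 inhibitor STM2457 and 4 from cells given DMSO, all collected after 6 h of treatment and before any chase. SLAM-seq feeds cells 4-thiouridine (s4U), which is built into new RNA and later read as T-to-C conversions in sequenced cDNA. The cells were male mouse embryonic stem cells, named mESC in the labels, which give no strain and no engineered allele. All 8 cultures were kept in 2i/LIF medium on gelatin and fed 100 µM s4U for 24 h, and for the last 6 h they received either 20 µM STM2457 or the solvent alone, both at 0.2% DMSO. Libraries were made from poly(A) ends with a stranded kit that reads 3′ ends, so a count here stands for reads near the 3′ end of a gene's transcripts. The comparison asks which genes, and which functions, had already responded to METTL3 inhibition at the earliest chase point.

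METTL3 is the catalytic subunit of the complex that writes N6-methyladenosine (m6A) into mRNA, with METTL14 as its partner and WTAP as the subunit that holds the pair at its sites. The mark falls mostly in DRACH sequences within long internal exons and around stop codons, and splice junctions keep it away from short internal exons. Proteins of the YTH family bind the mark, and cytoplasmic members of that family shorten the lives of the mRNAs that carry it. In embryonic stem cells many short-lived mRNAs for regulators of pluripotency carry the mark. The methylation itself was not measured in these libraries.

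The DMSO libraries held 5803916, 6340848, 7118182 and 6301442 counted reads, and the STM2457 libraries held 6290307, 5606256, 6005088 and 6591606. Values are given below as CPM, read counts scaled to library size by the trimmed mean of M values. Reads were counted without molecular identifiers, so PCR copies are not separate molecules and the errors used here come from replicates. The labels number the replicates without naming cultures, and the methods of the study describe its replicates as biological and independent, so each p below measures the spread between these samples. Along the first principal component, which held 27.9% of the variance, the DMSO libraries lay at -40.5, -27.0, -1.09 and -7.47 and the STM2457 libraries at 11.7, 8.47, 32.4 and 23.5, so the groups did not overlap. Between replicate libraries, the biological coefficient of variation at T0 was 19.5%.

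The libraries carried the RNA of naive pluripotent cells in both groups. Dppa5a, a naive-state marker whose reads almost all map to several places, was the most abundant gene of the naive pluripotency list at 2771 CPM on average. Pou5f1, the core pluripotency factor, was counted at 821, 837, 867 and 913 CPM with DMSO and 898, 943, 892 and 889.9 CPM with STM2457, and the groups overlapped. Because 95.6% of Pou5f1 reads and 55.6% of Klf4 reads map to several places, the source of these values is uncertain. Nanog gave 233, 217, 187 and 190.2 CPM with DMSO and 273, 281, 229 and 244 CPM with STM2457. Some members of the naive list were low in both groups, such as Prdm14 (0.844 CPM on average), Klf4 (2.59), Nr5a2 (3.30) and Tcl1 (5.21), and Sox2 was not analysed here. The summed naive list came to 6942, 7173, 7631 and 7397 CPM with DMSO and 8039.7, 7384, 8041 and 7648 CPM with STM2457, with 2 DMSO libraries above the lowest STM2457 library (exact permutation p = 0.0857, two-sided).

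Lists of markers of other cell types stood far below the naive list. Trophectoderm markers summed to between 163 and 223 CPM per library, led by Tfap2c (91.2 CPM), with Tpbpa and Prl3d1 at 0. Endoderm markers summed to between 254 and 300.5 CPM, led by Sparc (138 CPM), with Sox7 and Pdgfra at 0. Fibroblast markers summed to between 345 and 443 CPM, led by Vim (192 CPM), with Postn at 0. Neural markers summed to between 21.97 and 38.03 CPM, led by Nes (17.01 CPM). Both edgeR and DESeq2 called 0 of the 6 trophectoderm, 4 endoderm, 3 fibroblast and 3 neural genes tested, of which 2, 0, 0 and 0 had an unadjusted p under 0.05. Mesoderm markers, led by Cdx1 (69.6 CPM) and with Msgn1 at 0, summed to 101, 105, 112 and 113 CPM with DMSO and 134, 125, 124 and 124 CPM with STM2457, groups that did not overlap (exact permutation p = 0.0286, two-sided, the smallest that 4 against 4 can give). Both tools called 0 of its 6 tested genes, with 2 higher and 1 lower at an unadjusted p under 0.05. Whether cells with mesoderm markers took part in the gene changes below was not tested. In bulk RNA, fewer cells of a type and less RNA per cell cannot be told apart.

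After 6 h of STM2457, a small set of mRNAs was higher and a smaller one lower. The genes with the lowest p among those that rose were Brf2, Trp53rkb, Rpp25, Aunip and Mterf4, which encode parts of RNA polymerase III transcription, tRNA modification, RNA processing, the centrosome and mitochondrial ribosome assembly. Those with the lowest p among those that fell were Usp48, Polr2m, Hnrnpll, Sar1a and Mplkip, which encode a deubiquitinase, a regulator of RNA polymerase II, a splicing regulator, a GTPase of vesicle coats and a protein lost in a form of trichothiodystrophy. Of 21527 genes in the tables, 10852 had enough reads to test, and 154 of them were called (1.42%) by edgeR's quasi-likelihood test at a Benjamini-Hochberg adjusted p under 0.01. These were 115 genes higher with STM2457 (1.06%) and 39 lower (0.359%). The median log2 fold change was 0.80 over the genes called higher, -1.01 over those called lower and -0.00 over all genes tested. The last value is set near 0 by the scaling, which takes most genes as unchanged. Changes here are therefore relative to other genes, and a shift shared by most genes would not be seen. The study warns of such bias and used spike-ins or genes without m6A sites to scale its RNA-seq.

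Most of these changes were modest in size. Genes called higher ranged from 1.35-fold to 3.33-fold and those called lower from 1.32-fold to 5.61-fold. At least 2-fold differences were found for 22 of the genes called higher and 20 of those called lower, and at least 1.5-fold differences for 102 and 32. In all 154 the 4 values of 1 group lay beyond the 4 values of the other, as they did in 1291 of all genes tested (11.9%), 713 of them higher (6.57%) and 578 lower (5.33%). The number called depended on which libraries were used: it was 63 without DMSO replicate 2, 80 without DMSO replicate 4, 83 without STM2457 replicate 1, 68 without STM2457 replicate 3 and 67 without STM2457 replicate 4. DESeq2 called 306 genes, 214 higher and 92 lower, which included 153 of the 154.

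**Figure D1:**
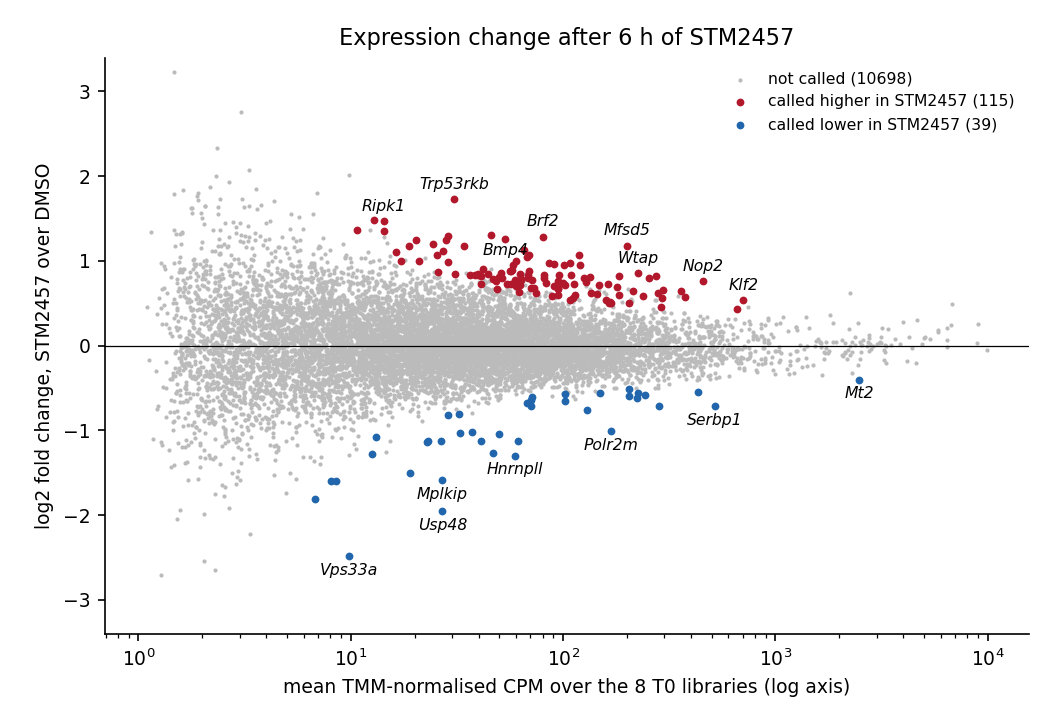
Each point is 1 of the 10852 genes tested at T0, with its mean CPM over the 8 libraries on a log axis and its log2 fold change, STM2457 over DMSO, on the other. The 115 genes called higher (red) and the 39 called lower (blue) spread over a wide range of abundance, and the named points were picked after their values were seen.

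Brf2 encodes the factor that recruits RNA polymerase III to genes with upstream promoters such as those of small nuclear RNAs (chr8:27123364-27128680, - strand, GRCm38). It was counted at 39.95, 43.997, 44.96 and 57.2 CPM with DMSO and 96.5, 124, 121 and 113 CPM with STM2457. The lowest STM2457 library stood well above the highest DMSO library, and the gene rose 2.44-fold (log2 fold change 1.29 ± 0.14, adjusted p = 1.95e-05, where ± gives the standard error over 4 libraries a group). Trp53rkb (chr2:166792531-166799505, + strand), a kinase of the KEOPS complex that modifies tRNA, had the largest rise of all called genes, from 17.2, 14.7, 14.5 and 10.2 CPM to 45.4, 44.7, 42.7 and 55.4 CPM. Its groups were far apart, and the rise was 3.33-fold (log2 fold change 1.73 ± 0.18, adjusted p = 1.95e-05).

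Rpp25 (chr9:57504026-57505448, + strand) encodes a subunit shared by RNase P and RNase MRP, which process tRNA and ribosomal RNA. Its values were 47.7, 44.3, 41.7 and 44.1 CPM with DMSO and 102, 91.5, 87.5 and 91.3 CPM with STM2457. Every treated library was above every DMSO library, a 2.09-fold rise (log2 fold change 1.07 ± 0.12, adjusted p = 3.59e-05). Aunip (chr4:134510999-134523927, + strand), a partner of Aurora A kinase at the centrosome, was more abundant, at 77.3, 80.2, 77.2 and 93.3 CPM with DMSO and 152, 165, 155 and 162 CPM with STM2457 (log2 fold change 0.95 ± 0.11, adjusted p = 3.59e-05). Mterf4 (chr1:93299211-93305915, - strand), which helps assemble the mitochondrial ribosome, went from 23.8, 25.7, 31.1 and 24.97 CPM to 54.4, 65.9, 68.1 and 72.1 CPM (log2 fold change 1.30 ± 0.15, adjusted p = 3.59e-05). Neither gene had a library that crossed into the other group. Brf2, Trp53rkb, Rpp25, Aunip and Mterf4 kept adjusted p under 0.01 without any 1 library (up to 0.000536, for Aunip).

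The other large increases came mostly from less abundant mRNAs of varied function. Ripk1, the kinase that decides between survival and death downstream of the TNF receptor, had 7.92, 8.61, 7.52 and 6.28 CPM with DMSO and 20.3, 18.1, 21.1 and 24.5 CPM with STM2457, a 2.77-fold rise (log2 fold change 1.47 ± 0.23, adjusted p = 0.000552). Bmp4, a ligand that acts in self-renewal and in mesoderm formation, had 37.2, 32.9, 20.99 and 35.6 CPM with DMSO and 87.8, 45.1, 56.9 and 111 CPM with STM2457. The treated values of Bmp4 were widely spread, and its rise was 2.38-fold (log2 fold change 1.25 ± 0.23, adjusted p = 0.00294). Smg8, a regulator of the SMG1 kinase in nonsense-mediated decay, rose 2.29-fold, with 10.7 to 17.9 CPM in DMSO against 28.8 to 41.5 CPM (log2 fold change 1.20 ± 0.20, adjusted p = 0.00113). Fkbpl, a protein related to immunophilins, rose 2.37-fold, with 15.5 to 19.3 CPM in DMSO against 34.7 to 43.8 CPM (log2 fold change 1.24 ± 0.17, adjusted p = 0.000154). Tent5b, a poly(A) polymerase that acts on cytoplasmic RNA, was among the least abundant, with 4.99 to 7.05 CPM against 12.4 to 19.9 CPM (log2 fold change 1.36 ± 0.27, adjusted p = 0.00508). Ripk1 and Fkbpl kept adjusted p under 0.01 without any 1 library (up to 0.00559, for Ripk1). Bmp4 lost its call without DMSO replicate 2 or STM2457 replicate 1 or 4 (adjusted p up to 0.0207), as did Smg8 without STM2457 replicate 4 (0.0107), and Tent5b without DMSO replicate 1, 2 or 4 or STM2457 replicate 1, 3 or 4 (0.0369). Bmp4 (adjusted p = 0.0318) and Tent5b (0.0122) were also not called with all 71 libraries fitted together.

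The remaining named increases were of unrelated function. Chrna9, a subunit of nicotinic acetylcholine receptors, had 16.9, 20.8, 10.4 and 18.7 CPM with DMSO and 41.5, 41.4, 36.1 and 44.9 CPM with STM2457 (log2 fold change 1.30 ± 0.20, adjusted p = 0.000493). Nrxn2, a neurexin that joins synapses, rose 2.55-fold, with 5.68 to 11.8 CPM in DMSO against 18.1 to 23.1 CPM (log2 fold change 1.35 ± 0.25, adjusted p = 0.00316). Gal3st3, a sulfotransferase of the Golgi, ranged from 7.23 to 19.01 CPM with DMSO and from 24.5 to 39.2 CPM with STM2457 (log2 fold change 1.25 ± 0.25, adjusted p = 0.00679). Plekho2, a protein with a lipid-binding pleckstrin homology domain, ranged from 4.24 to 10.4 CPM with DMSO and from 15.01 to 26.4 CPM with STM2457 (log2 fold change 1.48 ± 0.29, adjusted p = 0.00564). No group met the other in these 4 genes, although for Gal3st3 and Plekho2 the gap was narrower than the spread among the treated libraries. Leaving out any 1 library kept Chrna9 under 0.01 (adjusted p up to 0.00413). Nrxn2 lost its call without DMSO replicate 2 or 4 or STM2457 replicate 3 or 4 (adjusted p up to 0.0187), as did Gal3st3 without DMSO replicate 1, 2 or 4 or STM2457 replicate 1, 3 or 4 (0.0454), and Plekho2 without DMSO replicate 1, 2 or 4 or STM2457 replicate 1, 2, 3 or 4 (0.0412). Gal3st3 was also not called with all 71 libraries fitted together (adjusted p = 0.0189).

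The decreases were fewer and, at the extreme, larger. Usp48 (chr4:137593755-137658537, + strand), a ubiquitin-specific protease, had 37.7, 51.5, 44.5 and 37.8 CPM with DMSO and 12.1, 11.2, 10.9 and 10.04 CPM with STM2457. The treated libraries were nearly equal to each other and far below all DMSO libraries, 3.87-fold lower, with the lowest p of all genes tested (log2 fold change -1.95 ± 0.18, adjusted p = 6.09e-06). Polr2m (chr9:71478437-71485935, - strand), a protein that holds RNA polymerase II in a form dependent on Mediator, had 255, 235, 189.9 and 219 CPM with DMSO and 119, 117, 99.6 and 110.2 CPM with STM2457, 2.02-fold lower (log2 fold change -1.01 ± 0.11, adjusted p = 3.59e-05). Sar1a (chr10:61680299-61693297, + strand), the GTPase that starts COPII coat assembly on the endoplasmic reticulum, had 94.2, 94.9, 69.2 and 77.4 CPM and 38.9, 41.02, 38.8 and 35.4 CPM in the same order (log2 fold change -1.12 ± 0.14, adjusted p = 5.89e-05). The DMSO values of Sar1a varied more than its treated values, and the groups did not meet. Usp48, Polr2m and Sar1a kept adjusted p under 0.01 without any 1 library (up to 0.000868, for Sar1a).

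Mplkip (chr13:17695192-17699748, + strand), whose human counterpart is lost in trichothiodystrophy without photosensitivity, had 45.3, 31.8, 42.6 and 41.8 CPM with DMSO and 18.6, 12.6, 10.4 and 11.9 CPM with STM2457. It fell 3.01-fold (log2 fold change -1.59 ± 0.20, adjusted p = 7.66e-05). H2afx, the histone variant that is phosphorylated at DNA breaks, was very even with DMSO, at 56.1, 57.6, 54.7 and 56.8 CPM, and had 31.2, 26.8, 22.5 and 22.5 CPM with STM2457 (log2 fold change -1.13 ± 0.15, adjusted p = 0.000145). Arfgap1, which switches off the Golgi GTPase Arf1, fell 2.83-fold, with 17.9 to 33.8 CPM in DMSO against 7.15 to 14.3 CPM (log2 fold change -1.50 ± 0.25, adjusted p = 0.00118). Snn, a small mitochondrial membrane protein, fell 2.43-fold, with 15.7 to 22.7 CPM in DMSO against 5.96 to 8.88 CPM (log2 fold change -1.28 ± 0.25, adjusted p = 0.00438). All 4 genes had every treated library below every DMSO library. Mplkip, H2afx and Arfgap1 kept adjusted p under 0.01 without any 1 library (up to 0.00851, for Arfgap1). The call of Snn was lost without DMSO replicate 2 or 4 or STM2457 replicate 3 or 4 (adjusted p up to 0.0303).

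Scnm1, a component of the minor spliceosome, had an uneven DMSO group, at 106, 76.6, 38.4 and 42.7 CPM against 31.8, 30.3, 28.6 and 19.02 CPM with STM2457 (log2 fold change -1.26 ± 0.25, adjusted p = 0.00564). Atxn1l, a repressor related to ataxin, ranged over 21.1 to 38.7 CPM with DMSO and 10.7 to 18.4 CPM with STM2457 (log2 fold change -1.14 ± 0.22, adjusted p = 0.00468). Natd1, an acetyltransferase-domain protein, ranged over 27.1 to 42.7 CPM and 13.7 to 18.9 CPM (log2 fold change -1.13 ± 0.19, adjusted p = 0.00132). Alg8, a glucosyltransferase that builds the N-glycan precursor, ranged over 27.2 to 36.6 CPM and 11.2 to 18.6 CPM (log2 fold change -1.13 ± 0.20, adjusted p = 0.00195). Tacc1, a coiled-coil protein of the centrosome, ranged over 16.6 to 19.1 CPM and 7.43 to 10.04 CPM (log2 fold change -1.08 ± 0.23, adjusted p = 0.00807). Scnm1 lost its call without DMSO replicate 1 or 2 or STM2457 replicate 1, 2, 3 or 4 (adjusted p up to 0.035), as did Atxn1l without DMSO replicate 1, 2 or 4 or STM2457 replicate 1, 2 or 3 (0.0266), and Natd1 without STM2457 replicate 4 (0.0103). Alg8 lost its call without DMSO replicate 4 or STM2457 replicate 3 or 4 (adjusted p up to 0.0132), as did Tacc1 without DMSO replicate 1, 2, 3 or 4 or STM2457 replicate 1, 2, 3 or 4 (0.033). Scnm1 was also not called by DESeq2 (adjusted p = 0.0178).

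**Figure D2:**
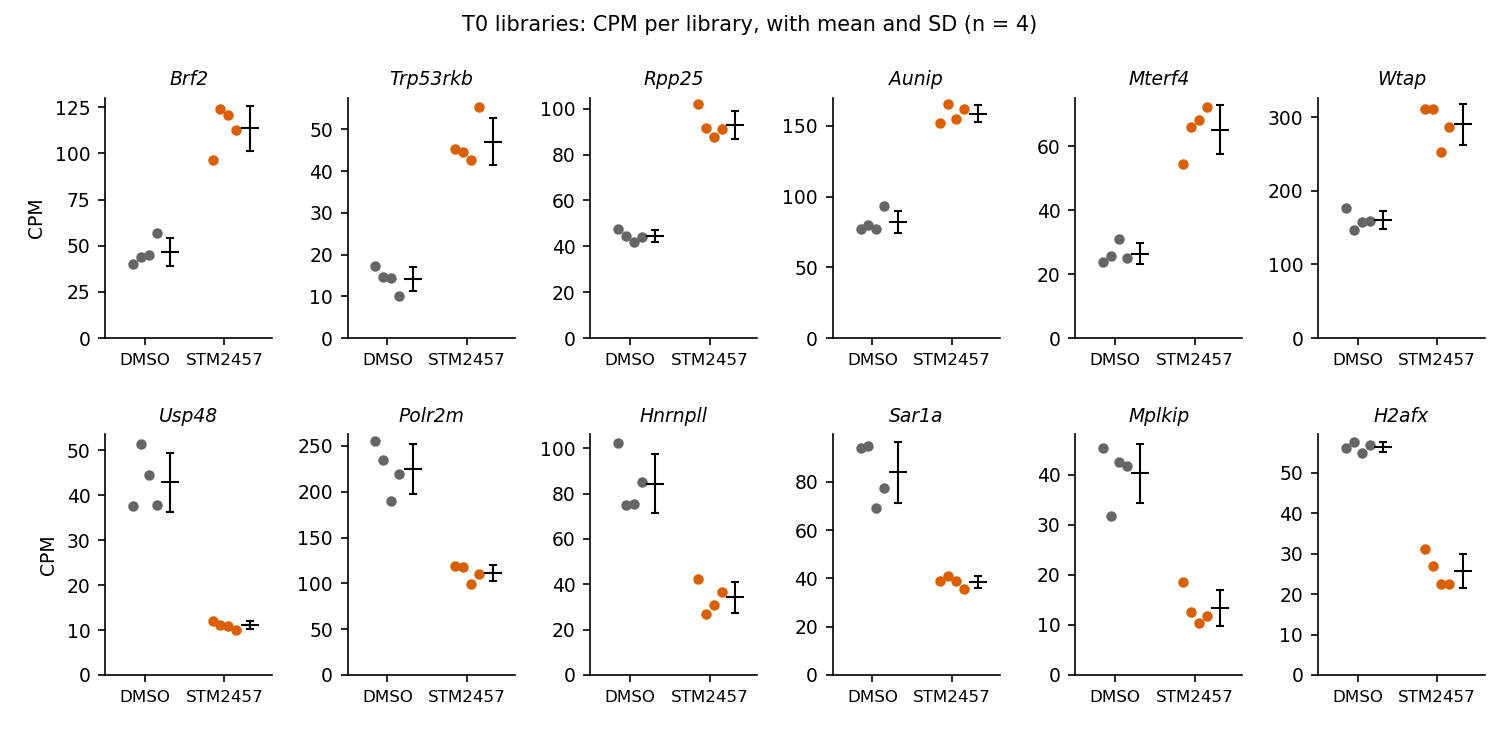
CPM of 12 called genes in each of the 4 DMSO libraries (grey) and 4 STM2457 libraries (orange), with the mean and SD of each group as bars beside the points. In every panel the groups do not overlap, and Usp48 shows the largest fold difference among the decreases, from 42.9 to 11.1 CPM on average.

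Several called genes outside the rule used for naming had low p or high abundance, and these were chosen after their values were seen. Ngfr, a neurotrophin receptor, rose 2.098-fold (log2 fold change 1.07 ± 0.13, adjusted p = 4.94e-05), and Itga1, a collagen-binding integrin, rose 1.96-fold (log2 fold change 0.97 ± 0.12, adjusted p = 4.94e-05). Nxt1, a partner of the mRNA export receptor, rose 2.06-fold (log2 fold change 1.04 ± 0.13, adjusted p = 0.000102). Nop2, a methyltransferase of ribosomal RNA, was more abundant, at 284, 313, 385 and 369.6 CPM with DMSO and 566, 489, 576 and 658 CPM with STM2457 (log2 fold change 0.76 ± 0.11, adjusted p = 0.000451). Each of these kept its call without any 1 library.

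Among the decreases chosen in the same way, Vps33a, a subunit of the complexes that tether late endosomes and lysosomes, had the largest fall of all called genes. It was counted at 15.7, 17.1, 19.4 and 14.6 CPM with DMSO and 2.58, 4.38, 1.53 and 3.35 CPM with STM2457, 5.61-fold lower (log2 fold change -2.49 ± 0.31, adjusted p = 7.66e-05), and its mean of 9.83 CPM kept it outside the naming rule. Serbp1, a ribosome-associated RNA-binding protein, was among the most abundant genes called, with 724, 659, 566 and 620.3 CPM with DMSO and 389.7, 399.9, 388 and 385 CPM with STM2457 (log2 fold change -0.72 ± 0.10, adjusted p = 0.00013). Tug1, a long noncoding RNA, fell 2.06-fold (log2 fold change -1.04 ± 0.15, adjusted p = 0.000395), although 98.2% of its reads map to several places, so its source is uncertain. Vps33a, Serbp1 and Tug1 kept adjusted p under 0.01 without any 1 library (up to 0.00365, for Tug1).

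Mt2 and Mtf1 were also chosen after the values were seen. Mt2, a metallothionein, had 2599.9, 2806, 3132 and 2786 CPM with DMSO and 2093, 1981, 2437 and 2045 CPM with STM2457 and was the most abundant called gene (log2 fold change -0.40 ± 0.09, adjusted p = 0.00962). Mtf1, the transcription factor that switches on metallothionein genes, had 18.3, 28.03, 32.1 and 32.3 CPM and 47.1, 60.3, 43.2 and 47.8 CPM (log2 fold change 0.84 ± 0.18, adjusted p = 0.00977). Both were close to the threshold. Mt2 lost its call without DMSO replicate 2, 3 or 4 or STM2457 replicate 1, 2 or 4 (adjusted p up to 0.0399), as did Mtf1 without DMSO replicate 1, 2 or 4 or STM2457 replicate 1, 2, 3 or 4 (0.0344). The call of Mt2 was also lost with all 71 libraries fitted together (adjusted p = 0.0669), and that of Mtf1 under other scalings and without multimapping reads (up to 0.0119).

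Of the m6A writer complex, 1 subunit was called. Wtap, the regulatory subunit, was counted at 177, 147, 157 and 159 CPM with DMSO and 311, 311, 253 and 286 CPM with STM2457. It rose 1.81-fold (log2 fold change 0.86 ± 0.11, adjusted p = 5.89e-05), with no overlap between groups. The catalytic subunit did not follow: Mettl3 had 34.4, 30.1, 32.1 and 32.03 CPM with DMSO and 31.8, 34.7, 28.1 and 22.8 CPM with STM2457 (log2 fold change -0.13 ± 0.17, adjusted p = 0.72). Mettl14, its partner, had 47.5, 28.5, 42.3 and 39.4 CPM and 49.2, 51.7, 28.4 and 32.3 CPM (log2 fold change 0.04 ± 0.20, adjusted p = 0.946). Rbm15 and Zc3h13, which link the complex to RNA, had log2 fold changes of 0.60 (adjusted p = 0.013) and 0.50 (adjusted p = 0.0494) and were not called. In all, 1 of 7 writer genes tested was called higher (14.3%, beside 1.06% of all genes) and 0 lower, the median log2 fold change was 0.27, and 3 of 7 were higher at an unadjusted p under 0.05, beside 10.6% of all genes. Without DMSO replicate 3 that median was 0.14. DESeq2 also called Rbm15 (2 of 7 higher). 63.5% of Wtap reads map to several places, and the call held with those reads left out. Leaving out any 1 library kept Wtap under 0.01 (adjusted p up to 0.00111).

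Readers of the mark rose in 2 cases of 12 tested (16.7%, beside 1.06% of all genes). Ythdc1, the nuclear YTH protein, had 68.9, 61.8, 53.9 and 60.6 CPM with DMSO and 121, 128, 96.9 and 131 CPM with STM2457, a 1.94-fold rise (log2 fold change 0.96 ± 0.13, adjusted p = 0.000128). Ythdf1, a cytoplasmic YTH protein, had 138, 152, 153 and 139.6 CPM with DMSO and 198, 194, 225 and 263 CPM with STM2457 (log2 fold change 0.59 ± 0.11, adjusted p = 0.00401). The related Ythdf2, which recruits the deadenylase to methylated mRNA, had 58.7, 53.9, 41.4 and 45.4 CPM and 85.2, 96.1, 67.3 and 60.1 CPM (log2 fold change 0.63 ± 0.16, adjusted p = 0.0267), which missed the threshold although its groups did not overlap. DESeq2 called 4 of the 12 readers higher, these 3 and Ythdf3. Hnrnpc and Igf2bp1, abundant readers of other protein families, had log2 fold changes of -0.02 and -0.03. The median over the list was -0.01, and 5 members were higher and 2 lower at an unadjusted p under 0.05, beside 10.6% and 9.13% of all genes. That median was 0.09 without DMSO replicate 3 and 0.05 without STM2457 replicate 2. Leaving out any 1 library kept Ythdc1 under 0.01 (adjusted p up to 0.00134). The call of Ythdf1 was lost without DMSO replicate 2 or 4 or STM2457 replicate 3 or 4 (adjusted p up to 0.025).

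A list of 8 other enzymes that add or remove RNA methyl groups gave no call: 0 of 8 by edgeR, 0 at an unadjusted p under 0.05 and 0 by DESeq2. This holds for the members listed, which leave out enzymes of ribosomal RNA. Of those left out, Nop2, Mrm2 and Mrm3 were called higher, with Mrm2 and Mrm3 chosen after their values were seen. Mrm2 lost its call without DMSO replicate 2 or 4 or STM2457 replicate 1, 2 or 4 (adjusted p up to 0.0304). Mrm3 did without DMSO replicate 2, 3 or 4 or STM2457 replicate 1, 3 or 4 (0.0531). The demethylases Alkbh5 and Fto had log2 fold changes of 0.15 (adjusted p = 0.511) and -0.22 (adjusted p = 0.28), and Mettl16, which methylates a small nuclear RNA, had 0.15 (adjusted p = 0.516). In the cycle that makes and spends the methyl donor S-adenosylmethionine, 1 of 16 genes was called (6.25%, beside 0.359% of all genes called lower). Shmt1, which feeds one-carbon units into that cycle, had 123, 119.9, 124 and 122 CPM with DMSO and 84.6, 78.2, 74.8 and 90.98 CPM with STM2457 and fell 1.49-fold (log2 fold change -0.57 ± 0.11, adjusted p = 0.00446). Mat2a, the enzyme that makes the methyl donor, had a log2 fold change of 0.04 (adjusted p = 0.895), and the list median was -0.11. The call of Shmt1 was lost without DMSO replicate 2 or 4 or STM2457 replicate 1, 2 or 3 (adjusted p up to 0.0234).

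Of 22 naive pluripotency genes tested, 3 rose (13.6%, beside 1.06% of all genes) and 0 fell. Klf2, a transcription factor that sustains the naive state, was the most abundant of them, at 474, 579, 615 and 635 CPM with DMSO and 761, 835, 880.2 and 864 CPM with STM2457, a 1.45-fold rise (log2 fold change 0.54 ± 0.10, adjusted p = 0.00369). Esrrb, an orphan nuclear receptor of the same network, had 71.1, 72.96, 78.2 and 79.5 CPM with DMSO and 104, 114, 111 and 127 CPM with STM2457 (log2 fold change 0.60 ± 0.11, adjusted p = 0.00421). Zfp42, also called Rex1, had 48.9, 46.03, 46.5 and 48.5 CPM and 80.4, 83.8, 71.3 and 76.8 CPM (log2 fold change 0.72 ± 0.12, adjusted p = 0.00163), with 73.997% of its reads mapping to several places. The groups did not overlap for any of the 3, and the call of Zfp42 held with multimapping reads left out. Nanog, with the values given above, missed the threshold (log2 fold change 0.31 ± 0.11, adjusted p = 0.107), as did Pou5f1 (log2 fold change 0.08 ± 0.08, adjusted p = 0.671), Klf4 (log2 fold change -0.27 ± 0.70, adjusted p = 0.876) and, from the MYC network, Myc (log2 fold change 0.25 ± 0.41, adjusted p = 0.795). The list median was 0.08, with 9 members higher and 3 lower at an unadjusted p under 0.05, beside 10.6% and 9.13% of all genes. Klf2 lost its call without DMSO replicate 2 or STM2457 replicate 3 or 4 (adjusted p up to 0.0222), as did Esrrb without DMSO replicate 2 or 4 or STM2457 replicate 2, 3 or 4 (0.0259), and Zfp42 without DMSO replicate 2 (0.0108). With all 71 libraries fitted together Klf2 (adjusted p = 0.0112) and Zfp42 (0.0249) were not called, which leaves Esrrb.

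Signalling that shapes the exit from pluripotency gave single calls. Among 14 WNT targets and feedback genes, Bmp4 alone was called (7.14%, beside 1.06% of all genes), and the median was -0.03. Among 16 genes of the FGF-ERK response, the single call (6.25%) was Jund, a subunit of the AP-1 transcription factor, with 113, 128, 173 and 133 CPM with DMSO and 201, 174, 258 and 251 CPM with STM2457 (log2 fold change 0.69 ± 0.14, adjusted p = 0.00576). The feedback inhibitor Spry2 had a log2 fold change of -0.20 (adjusted p = 0.324), and the ERK list median of -0.04 changed sign under DESeq2, to 0.14. Of 10 NF-kB and TNF genes, Ripk1 was called (10.0%), while Nfkbia and Rela had log2 fold changes of 0.55 and 0.54 (adjusted p = 0.0869 and 0.121), with a list median of 0.18. Jund lost its call without DMSO replicate 1, 2 or 4 or STM2457 replicate 1, 3 or 4 (adjusted p up to 0.0412), as did Bmp4 without DMSO replicate 2 or STM2457 replicate 1 or 4 (0.0207). With all 71 libraries fitted together neither Bmp4 (adjusted p = 0.0318) nor Jund (0.0279) was called, which leaves 0 in their lists. The NF-kB median was 0.09 without DMSO replicate 1.

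The 4 other lists next to pluripotency had no call. LIF-STAT3 targets had 0 of 12 called by both tools, 1 higher and 1 lower at an unadjusted p under 0.05, and a median of 0.07, with Gbx2 at 0.48 (adjusted p = 0.163). BMP and Nodal targets had 0 of 14 called by edgeR, 3 higher and 4 lower at an unadjusted p under 0.05, and 2 by DESeq2, Bambi higher and Lefty1 lower. Lefty1, a Nodal antagonist, had 565, 453, 451 and 467 CPM with DMSO and 389, 396, 325 and 353 CPM with STM2457 (log2 fold change -0.40 ± 0.10, adjusted p = 0.0295). The formative and primed list had 0 of 17 called by both tools, 1 higher and 3 lower at an unadjusted p under 0.05, and a median of -0.14, with the de novo methyltransferase Dnmt3b at -0.41 (adjusted p = 0.0404). The MYC network had 0 of 12 called by both tools, 1 higher at an unadjusted p under 0.05, and a median of 0.20, with 10 members above 0.

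Cholesterol synthesis had 2 of 23 genes called higher (8.70%, beside 1.06% of all genes) and a median log2 fold change of 0.25, with 19 of 23 above 0, beside 49.7% of all genes. Msmo1, a methylsterol oxidase, had 264, 231, 227 and 219 CPM with DMSO and 353, 321, 369.7 and 347 CPM with STM2457 (log2 fold change 0.56 ± 0.10, adjusted p = 0.00201). The rise of Msmo1 was 1.48-fold, without overlap between groups. Hmgcs1 and Cyp51, earlier and later enzymes of the pathway, had log2 fold changes of 0.25 and 0.28 (adjusted p = 0.177 and 0.187), and DESeq2 called a further gene, Dhcr7. At an unadjusted p under 0.05, 8 members were higher and 0 lower, beside 10.6% and 9.13% of all genes. The call of Msmo1 was lost without DMSO replicate 2 or 4 or STM2457 replicate 1 or 3 (adjusted p up to 0.0154).

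The p53 list had 1 of 20 genes called lower (5.00%, beside 0.359% of all genes), a median of -0.30 and 3 of 20 above 0, beside 49.7% of all genes. Ccng1, a cyclin induced by p53, had 339, 259, 241 and 243 CPM with DMSO and 189, 184, 165 and 168 CPM with STM2457 and fell 1.53-fold (log2 fold change -0.62 ± 0.12, adjusted p = 0.00395). Mdm2, the ligase that limits p53, had 302, 319.9, 329.6 and 326 CPM with DMSO and 190.2, 266, 244 and 261 CPM with STM2457 (log2 fold change -0.41 ± 0.11, adjusted p = 0.0373), which was not called by edgeR at 0.01 and was by DESeq2. Cdkn1a, the inhibitor of cyclin-dependent kinases known as p21, had 254, 348, 376 and 289.7 CPM and 205, 171, 263 and 256 CPM (log2 fold change -0.50 ± 0.14, adjusted p = 0.043), with overlapping groups. At an unadjusted p under 0.05, 11 of the 20 were lower and 0 higher, beside 9.13% and 10.6% of all genes. These counts hold for the members listed. Outside the list, Ppm1d, which acts in p53 signalling, and Sfn, a known p53 target, were called higher, and both are described below. Trp53i13, named for its induction by p53 and chosen after its values were seen, was also called higher outside the list. Its call was lost without DMSO replicate 1, 2 or 3 or STM2457 replicate 1, 3 or 4 (adjusted p up to 0.0411). Ccng1 was also the single call among 21 cyclins and kinase inhibitors (4.76%), where Ccnb1, the mitotic cyclin, had a log2 fold change of -0.21 (adjusted p = 0.2). The call of Ccng1 was lost without DMSO replicate 2 or STM2457 replicate 1, 3 or 4 (adjusted p up to 0.0232). With all 71 libraries fitted together it was also lost (0.0105), which leaves 0 in both lists.

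RNA-binding proteins of the hnRNP family had 2 of 20 members called lower (10.0%, beside 0.359% of all genes) and 0 higher, with a median of -0.17. At an unadjusted p under 0.05, 1 was higher and 6 lower, and DESeq2 also called Hnrnpu lower. Hnrnpll, which represses exons in lymphocytes, had 102, 74.8, 75.2 and 85.1 CPM with DMSO and 42.5, 26.8, 30.8 and 36.7 CPM with STM2457, 2.46-fold lower (log2 fold change -1.30 ± 0.16, adjusted p = 4.94e-05). Its paralog Hnrnpl had 371, 353, 349.9 and 334 CPM with DMSO and 196, 226, 205 and 229 CPM with STM2457, 1.64-fold lower (log2 fold change -0.72 ± 0.10, adjusted p = 0.000154). In both, all treated libraries were below all DMSO libraries. The SR splicing factors had 0 of 20 called by edgeR and 0 by DESeq2, with 1 higher and 4 lower at an unadjusted p under 0.05, and Srsf3 had a log2 fold change of -0.35 (adjusted p = 0.0766). Hnrnpll and Hnrnpl kept adjusted p under 0.01 without any 1 library (up to 0.00217, for Hnrnpl).

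RNA decay and silencing gave isolated calls. Nonsense-mediated decay had Smg8 as its single call of 15 (6.67%, beside 1.06% of all genes called higher), while DESeq2 also called Magohb lower, with a median of -0.00. In the microRNA pathway, Tnrc6c, a GW182 scaffold of silencing, was the single call of 15 (6.67%, beside 0.359% of all genes called lower). It had 13.3, 12.5, 8.23 and 8.32 CPM with DMSO and 3.07, 3.16, 3.06 and 2.74 CPM with STM2457, 3.502-fold lower (log2 fold change -1.81 ± 0.34, adjusted p = 0.00379), at a low abundance. The CCR4-NOT deadenylase had 0 of 18 called by edgeR and 0 by DESeq2, with 0 higher and 2 lower at an unadjusted p under 0.05. Decapping and exonuclease genes had 0 of 20 called by both tools, with 2 higher and 1 lower at an unadjusted p under 0.05, and their median was -0.07. Smg8 lost its call without STM2457 replicate 4 (adjusted p up to 0.0107), as did Tnrc6c without DMSO replicate 1 or 2 or STM2457 replicate 1, 3 or 4 (0.0235).

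Transcription and chromatin lists gave 1 call each or none. Cdk9, the kinase that releases paused RNA polymerase II, was called among 19 elongation genes (5.26%, beside 1.06% of all genes), with 82.5, 97.9, 116 and 93.6 CPM with DMSO and 145, 184, 179 and 175 CPM with STM2457 (log2 fold change 0.81 ± 0.12, adjusted p = 0.000491). 71.03% of its reads map to several places. Without such reads its log2 fold change was 0.62 and its adjusted p was 0.0274. Most of the rise remained, but this call is uncertain. Polr2a, the large subunit of the polymerase, had a log2 fold change of -0.13 (adjusted p = 0.492). Daxx, which loads the histone variant H3.3 on repeats, was called among 17 genes of H3K9 methylation and retroelement silencing (5.88%), with 96.1, 158, 141 and 136 CPM with DMSO and 204, 220.0, 275 and 238 CPM with STM2457 (log2 fold change 0.82 ± 0.13, adjusted p = 0.00106). H2afx was the single call among 10 replication-independent histone variants (10.0%, beside 0.359% of all genes called lower), whose median was -0.11. Polycomb had 0 of 26 called by edgeR, 4 higher and 4 lower at an unadjusted p under 0.05, and 3 by DESeq2, Cbx2 and Kdm2b higher and Eed lower. Cdk9 and H2afx kept adjusted p under 0.01 without any 1 library (up to 0.00437, for Cdk9). The call of Daxx was lost without STM2457 replicate 3 (adjusted p up to 0.0103).

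The lists of housekeeping genes held 0 or 1 call each, numbers that cannot be told apart from the 1.42% of all genes in lists of this size. Cytosolic ribosomal proteins had 0 of 82 called by edgeR, 5 higher and 7 lower at an unadjusted p under 0.05, and 1 by DESeq2, Rplp2, and their median was -0.02. Mitochondrial ribosomal proteins had 1 of 76, Mrps2, at 84.7, 72.02, 128 and 99.2 CPM with DMSO and 174, 152, 150.4 and 168 CPM with STM2457 (log2 fold change 0.75 ± 0.14, adjusted p = 0.00395), against a median of -0.11. In that list 6 genes were higher and 20 lower at an unadjusted p under 0.05, beside 10.6% and 9.13% of all genes. The share lower was thus above that of all genes, although few members were called. DESeq2 called Mrpl43 and Mrps2 higher and Mrpl47 and Mrpl54 lower. Oxidative phosphorylation had 0 of 88 by both tools, with 2 higher and 14 lower at an unadjusted p under 0.05 and a median of -0.06. Among 62 translation factors, Eif1a, which scans for the start codon, had 162, 129, 124 and 132 CPM with DMSO and 198, 181, 195 and 209 CPM with STM2457 (log2 fold change 0.52 ± 0.11, adjusted p = 0.00886), but the call was lost with multimapping reads left out and with scaling by library totals (adjusted p = 0.0106 in both). It is also the single tested gene of 12 in the tables from a list of markers of the 2-cell-like state, where Zscan4b, Zscan4f, Tdpoz4 and Tcstv1 were at 0 in all 8 libraries. Among 38 proteasome genes, Psma4 had 292, 244, 219.6 and 225 CPM and 173, 169.5, 172 and 134 CPM (log2 fold change -0.60 ± 0.12, adjusted p = 0.0052). Of the Psma4 reads, 87.6% map to several places. Without them its log2 fold change was -0.73, no smaller, but its adjusted p was 0.067, so that call is uncertain. At an unadjusted p under 0.05, 2 translation factors were higher and 11 lower, and 3 proteasome genes were higher and 6 lower. Mrps2 lost its call without DMSO replicate 2 or 4 or STM2457 replicate 1, 3 or 4 (adjusted p up to 0.0249), as did Eif1a without DMSO replicate 2, 3 or 4 or STM2457 replicate 1, 2, 3 or 4 (0.0457), and Psma4 without DMSO replicate 1, 2 or 4 or STM2457 replicate 1, 2, 3 or 4 (0.0299).

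Of 289 Zfp zinc finger genes, 4 were called higher (1.38%, beside 1.06% of all genes: Zfp1, Zfp296, Zfp42 and Zfp574) and 1 lower (0.346%, beside 0.359%: Zfp207), with a median of 0.05. Zfp1, a zinc finger protein of little known function, had the largest rise of these, from 16.4, 16.6, 15.2 and 18.1 CPM to 30.4, 32.6, 38.1 and 37.4 CPM (log2 fold change 1.07 ± 0.17, adjusted p = 0.000938). Zfp574 rose 1.78-fold (log2 fold change 0.83 ± 0.15, adjusted p = 0.00232) and Zfp207, a spindle and splicing factor also called BuGZ, fell 1.48-fold (log2 fold change -0.56 ± 0.12, adjusted p = 0.00785). Of 96 Trim and Rnf ligases, Trim13, Trim25 and Trim27 rose (3.12%), by 1.72-fold, 1.71-fold and 1.56-fold (adjusted p = 0.00106, 0.00622 and 0.000837). Trim28, the abundant corepressor of the same family, had a log2 fold change of 0.19 (adjusted p = 0.524). Zfp1, Trim13 and Trim27 kept adjusted p under 0.01 without any 1 library (up to 0.00854, for Trim13). Zfp574 lost its call without DMSO replicate 2 or STM2457 replicate 3 or 4 (adjusted p up to 0.0164), as did Zfp207 without DMSO replicate 1, 2 or 4 or STM2457 replicate 1, 2, 3 or 4 (0.0422), and Zfp296 without DMSO replicate 2 or 4 or STM2457 replicate 1, 2, 3 or 4 (0.0459). Trim25 lost its call without DMSO replicate 1 or 2 or STM2457 replicate 1, 3 or 4 (adjusted p up to 0.037). Zfp574 (adjusted p = 0.0171) and Trim25 (0.0187) were also not called with all 71 libraries fitted together.

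Among 167 solute carriers tested, 2 mitochondrial carriers rose (1.20%, close to the 1.06% of all genes) and 0 fell, in a list of the A and O subfamilies by name. It leaves out Slc35b2, a Golgi carrier of the sulfate donor, which also rose (log2 fold change 0.99 ± 0.21, adjusted p = 0.00776) and was chosen after its values were seen. Slc25a28, the mitochondrial iron importer mitoferrin 2, had 36.9, 30.8, 51.9 and 41.5 CPM with DMSO and 77.8, 62.2, 98.4 and 82.9 CPM with STM2457 (log2 fold change 0.99 ± 0.17, adjusted p = 0.00119). Slc25a51, the mitochondrial NAD importer, had 64.1, 63.6, 83.1 and 82.6 CPM with DMSO and 119, 108, 118 and 122 CPM with STM2457 (log2 fold change 0.67 ± 0.12, adjusted p = 0.00312). Rab9, a GTPase of late endosomes, was the single call of 66 TBC and Rab genes (1.52%, also close to 1.06%), with 40.6, 39.6, 40.6 and 36.3 CPM and 80.4, 73.5, 74.4 and 62.1 CPM (log2 fold change 0.89 ± 0.13, adjusted p = 0.00049). Ddx20, a helicase of the SMN complex, was the single call of 50 DEAD and DEAH box genes (2.00%, beside 1.06%), rising 1.45-fold (log2 fold change 0.54 ± 0.11, adjusted p = 0.00558) against a list median of -0.13. In that list 5 genes were higher and 12 lower at an unadjusted p under 0.05, and DESeq2 also called Ddx3x and Dhx16, both lower. Of 39 ubiquitin-specific proteases, Usp48 was the single call (2.56%, beside 0.359% of all genes called lower), with a median of -0.01. Leaving out any 1 library kept Rab9 under 0.01 (adjusted p up to 0.00446). Slc25a28 lost its call without DMSO replicate 2 or STM2457 replicate 3 (adjusted p up to 0.0119), as did Slc25a51 without DMSO replicate 2 or STM2457 replicate 1, 3 or 4 (0.0235), and Slc35b2 without DMSO replicate 1, 2 or 4 or STM2457 replicate 1, 3 or 4 (0.0481). Ddx20 lost its call without DMSO replicate 2, 3 or 4 or STM2457 replicate 1, 2, 3 or 4 (adjusted p up to 0.0294).

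The lists of the integrated stress response, interferon response, DNA replication and mitosis had no call, although genes outside them, such as Ccng1 and Zfp207 above, also act in stress or the cell cycle. The ATF4 integrated stress response had 0 of 24 called by edgeR, 5 higher and 4 lower at an unadjusted p under 0.05, and 1 by DESeq2, Nupr1. Atf4 itself had 541, 514, 501 and 530.0 CPM with DMSO and 566, 512, 579 and 598 CPM with STM2457 (log2 fold change 0.11 ± 0.09, adjusted p = 0.533). The interferon and double-stranded RNA response had 0 of 13, with 2 higher at an unadjusted p under 0.05, 1 by DESeq2, Mavs, and a median of 0.22, or 0.35 without STM2457 replicate 2. The sensor Ddx58 of that list had a log2 fold change of 0.28 (adjusted p = 0.282). DNA replication had 0 of 30, with 1 higher and 7 lower at an unadjusted p under 0.05, 1 by DESeq2, Rfc4, and a median of -0.17. Mitosis and spindle genes had 0 of 24 by both tools, with 0 higher and 7 lower at an unadjusted p under 0.05. Top2a had a log2 fold change of -0.13 (adjusted p = 0.513). Over all genes 10.6% were higher and 9.13% lower at that unadjusted p. The shares lower among DNA replication and mitosis genes were above this.

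Of 61 lists in all, 35 held no call by edgeR. Their 666 tested genes included 56 higher and 86 lower at an unadjusted p under 0.05 (21.3%, beside 19.7% of all genes tested), and DESeq2 called 6 higher and 4 lower. Lists of this kind not yet named were the unfolded protein response (18 tested, median -0.02), heat shock (16, -0.16), NRF2 targets (13, 0.03), hypoxia and glycolysis (24, 0.14) and autophagy (23, 0.07). Also without a call were the BCL2 family (13, 0.03), AU-rich element binding proteins (13, -0.03), nuclear RNA quality and polyadenylation (13, -0.13) and snoRNA hosts and long noncoding RNAs (10, 0.14). The remaining ones were trithorax and acetylation (22, 0.03), DNA methylation and TET (14, -0.04), Jumonji demethylases (14, 0.02), kinesins (28, 0.05), tRNA synthetases (17, -0.13) and cadherins (9, -0.22). These zeros hold for the members listed and not for whole functions: Tug1, called lower, is a long noncoding RNA outside the list, and Atg101, an autophagy gene outside the list and chosen after its values were seen, was called higher (log2 fold change 0.95 ± 0.13, adjusted p = 0.000128). Of the tRNA synthetases, 0 were higher and 7 lower at an unadjusted p under 0.05, and DESeq2 called Dars lower. The cadherin median was -0.05 under DESeq2, 0.05 with all 71 libraries scaled together, and -0.07, -0.10 and -0.08 without DMSO replicate 4, STM2457 replicate 3 or STM2457 replicate 4. Without DMSO replicate 1 the median of nuclear RNA quality and polyadenylation was -0.002 and that of the tRNA synthetases -0.07.

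The genes that rose at T0 had fewer exons than most genes tested. Their longest coding transcripts had a median of 4 exons, against 7 for genes that fell and 9 for all genes tested. Transcripts with at most 2 exons made up 21.7% of the genes called higher, 16.2% of those called lower and 6.22% of all. Among tested genes with 1 exon 3.20% were called higher, among those with 2 exons 4.11%, with 3 to 5 exons 1.95%, with 6 to 10 exons 0.942%, with 11 to 20 exons 0.425% and with 21 or more 0.276%. The median log2 fold change over all genes of these exon classes went from 0.10 and 0.14 to 0.05, -0.02, -0.03 and -0.03. Transcript length differed less, with medians of 2421 bases for genes called higher, 2872 for genes called lower and 3102 for all. The features were taken from GENCODE M21 transcripts, which gave a coding transcript for all 115 genes called higher, 37 of the 39 called lower and 10560 of the 10852 tested (97.3%).

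The genes that rose lost their s4U label fast in DMSO-treated cells. In DMSO libraries of the chase, the conversion rate at 5.3 h was 10.9% of that at 1 h for the median gene called higher (quartiles 7.93 and 14.8), 24.98% for the median gene called lower (16.4 and 38.6) and 22.9% over all genes (12.4 and 39.6). Genes with enough coverage for this measure numbered 110, 37 and 8044. Of the genes with the lowest p, this percentage was 15.2 for Brf2, 16.96 for Trp53rkb, 5.28 for Rpp25, 8.64 for Aunip and 10.4 for Mterf4. It was 21.8 for Usp48, 38.6 for Polr2m, 42.4 for Hnrnpll, 17.5 for Sar1a and 18.6 for Mplkip. The rate of unlabelled libraries was not subtracted. Over whole DMSO libraries it was 0.0818%, beside 1.17 to 1.34% at 1 h. The lowest percentages therefore lie near this background and do not measure the label kept. The genes that fell were thus close to all genes at the median. Hours of chase here and below are those the study gives, because the labels number the chase points without hours. These chase libraries share no sample with the 8 compared here, and no test was made of the features.

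**Figure D3:**
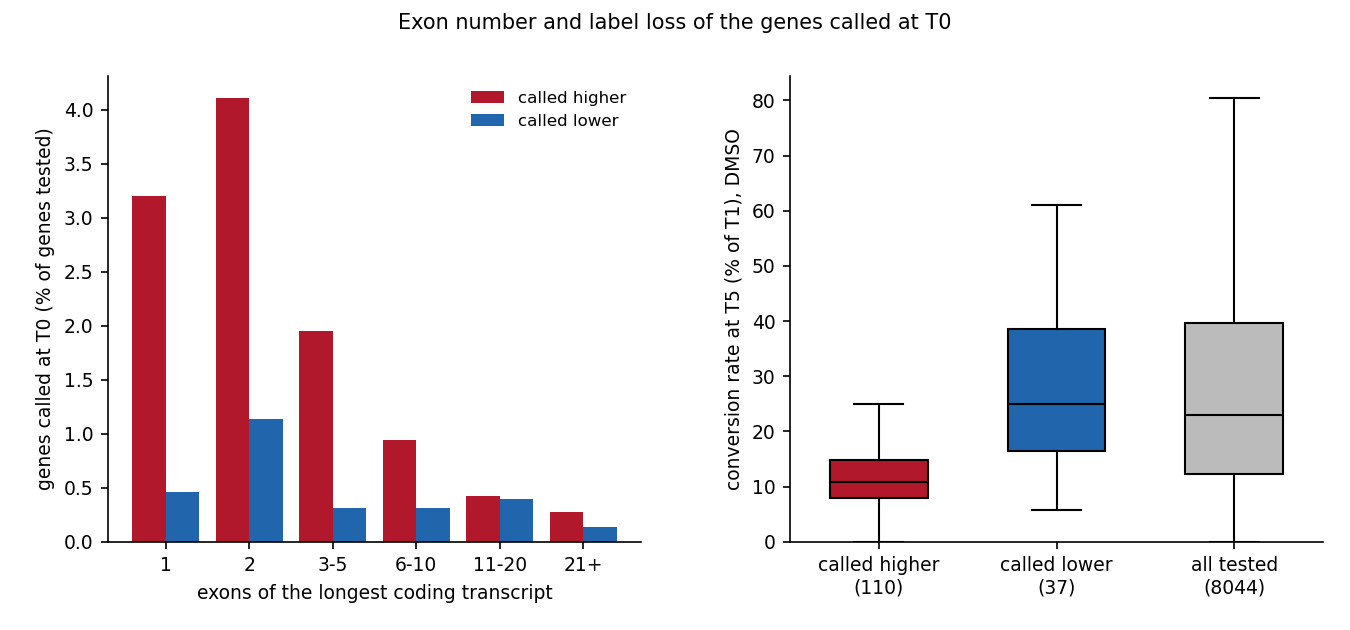
The bars give the percentage of tested genes called higher (red) or lower (blue) at T0 for transcripts with 1, 2, 3 to 5, 6 to 10, 11 to 20 and 21 or more exons. The boxes give the conversion rate at 5.3 h of chase as a percentage of that at 1 h in DMSO, as median, quartiles and whiskers to 1.5 times the quartile range, with medians of 10.9, 24.98 and 22.9.

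Motif density set the called genes apart less than exon number. The letters GGAC followed by A, C or T, a form of the sequence in which m6A is written, were searched on the transcript strand of the longest coding transcript, and the median was 4.34 per kb for genes called higher, 3.43 for genes called lower and 3.64 for all. Within 200 bases on either side of the end of the coding sequence, 86.1% of genes called higher, 78.4% of those called lower and 79.0% of all 10560 transcripts held at least 1 such match. The match nearest the end of the coding sequence is printed for the 5 genes with the lowest p in each direction and for Wtap, as a subunit of the writer, 5′ to 3′ with the motif in capitals, because these are the letters that the inhibited enzyme could read in the mRNAs that changed most clearly. A match is a description of the letters and no evidence of a methylated site. The genes that rose come first and then those that fell.
Brf2: agttaattGGACCaaggtcct
Trp53rkb: acgaggctGGACCcctcagca
Rpp25: tgaggacaGGACCgcctgaga
Aunip: tttacccaGGACTctgagggt
Mterf4: agtgctggGGACCttcacctg
Wtap: ctgtggtgGGACAgccaagta
Usp48: gcctgctcGGACAttaatctt
Polr2m: cagggctgGGACAccccgaga
Hnrnpll: caagtgctGGACAagcatcta
Sar1a: tgatgtttGGACAgtgaaaat
Mplkip: aacatcctGGACAgaactttt

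On GRCm38 the Brf2 window lies at chr8:27123760-27123780, - strand, 127 bases into the 3′ UTR, and the Trp53rkb window at chr2:166795902-166795922, + strand, 55 bases into it. The windows of Rpp25 (chr9:57504818-57504838, + strand), Aunip (chr4:134523727-134523747, + strand) and Mterf4 (chr1:93301399-93301419, - strand) lie in the coding sequence, with the match 5, 28 and 28 bases before its end. The Wtap window (chr17:12975219-12975239, - strand) lies 66 bases into the 3′ UTR. Of the genes that fell, Usp48 has its match 3 bases before the end of the coding sequence (chr4:137656128-137656148, + strand), and Polr2m (chr9:71479373-71479393, - strand), Sar1a (chr10:61691399-61691419, + strand) and Mplkip (chr13:17697080-17697100, + strand) have theirs 17, 11 and 51 bases past it. Hnrnpll (chr17:80034126-80034146, - strand) has its nearest match 300 bases before the end and H2afx, which also fell, 427 bases past it, both outside the 200 bases searched. With 79.0% of all transcripts holding a match there, the printed windows do not set these genes apart.

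Of 368 tested genes on the X chromosome, 1 was called higher (0.272%), Rab9, and 0 lower, beside 114 (1.09%) and 39 (0.373%) of 10465 autosomal genes. Shares called higher were as low on chromosomes 10 (0.193%) and 3 (0.205%). The X-linked median log2 fold change was -0.08, against -0.07 on chromosome 18 and -0.00 over all autosomes. The log2 ratio of median X-linked to autosomal CPM was -0.38, -0.27, -0.44 and -0.43 with DMSO and -0.46, -0.42, -0.53 and -0.46 with STM2457. The groups overlapped and the mean difference of -0.09 did not pass an exact permutation test (p = 0.0857, two-sided, n = 4 a group). In all 4 same-numbered pairs the STM2457 value was lower (exact sign-flip p = 0.125, the smallest that 4 pairs can give). Chromosome 11 held the most calls, 13 higher and 10 lower of 939 genes, and chromosome 19 the highest share of genes called higher (7 of 371, 1.89%).

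The share of reads in the most abundant genes did not pass a test between treatments. The 10 most abundant genes of each library took 6.89%, 6.85%, 7.16% and 6.98% of reads with DMSO and 7.67%, 7.08%, 7.82% and 7.65% with STM2457, with 1 STM2457 library inside the DMSO range (exact permutation p = 0.0571, two-sided, n = 4 a group).

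STM2457 and DMSO were also compared in unlabelled cells, in libraries that share no sample with T0 and whose labels do not give the hours of treatment. All 115 genes that rose at T0 and all 39 that fell had the same sign of change there, with median log2 fold changes of 0.74 and -0.83. By edgeR, 107 of 10708 genes were called (0.999%), 85 higher (0.794%) and 22 lower (0.205%), and the groups did not overlap in 6.72% of genes with higher and 5.51% with lower values. Of these, 52 and 15 were also called at T0, which is 45.2% and 38.5% of the T0 calls and 61.2% and 68.2% of the unlabelled ones. Trp53rkb had a log2 fold change of 1.61 (adjusted p = 0.00036), Aunip of 1.23 (1.57e-05), Wtap of 0.78 (0.000861) and Usp48 of -1.06 (0.00742). A test of the difference between the T0 and the unlabelled effect called 0 of 11349 genes by edgeR, with 334 at an unadjusted p under 0.05. DESeq2 was not run on that difference, and called 302 genes in the unlabelled libraries alone. The unlabelled count of 107 was 33 without DMSO replicate 2, 36 without DMSO replicate 3, 34 without STM2457 replicate 2, 29 without STM2457 replicate 3 and 58 without STM2457 replicate 4.

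At T1, 1 h into the chase and 7 h into treatment, the T0 genes kept their direction but no gene was called. All 115 that rose and 37 of the 39 that fell had the same sign of change, with medians of 0.64 and -0.58. By edgeR, 0 of 10807 genes were called (0%), with 757 at an unadjusted p under 0.05, while DESeq2 called 43, 33 higher and 10 lower. Replicates were more spread at T1, with a biological coefficient of variation of 30.5%, and the groups did not overlap in 3.38% of genes with higher and 2.09% with lower values. Wtap had a log2 fold change of 0.92 (adjusted p = 0.0608), Usp48 of -1.48 (0.0608) and Mterf4 of 1.11 (0.0608) there. The T1 and T0 effects differed for 0 of 11371 genes by edgeR's interaction test, with 247 at an unadjusted p under 0.05, and DESeq2 was not run on it.

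At T7, 12 h into the chase and 18 h into treatment, most of the early increases were called again and few of the early decreases were. By edgeR, 1021 of 11007 genes were called at T7 (9.28%), and the groups did not overlap in 10.5% of genes with higher and 9.32% with lower values. Of the 115 genes that rose at T0, 110 had the same sign at T7 and 79 were called higher again (68.7% of the T0 list and 12.5% of the 634 genes called higher at T7, which were 5.76% of all tested). Of the 39 that fell, 28 had the same sign and 6 were called lower again (15.4% of the T0 list and 1.55% of the 387 called lower at T7, 3.52%). The other direction was called for 2 of them, Zfp207 and B230219D22Rik. The median log2 fold change of the early increases was 0.80 at T0 and 0.66 at T7, and that of the early decreases was -1.01 at T0 and -0.23 at T7.

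The difference between the T7 and T0 effects, tested as an interaction with edgeR, was called for 196 of 11538 genes (1.70%), 152 with a more positive effect at T7 (1.32%) and 44 with a more negative one (0.381%), among them 8 of the 115 and 12 of the 39. Usp48 went from a log2 fold change of -1.95 at T0 to -0.31 at T7 (interaction adjusted p = 4.75e-05) and Mplkip from -1.59 to 0.35 (8.25e-05). Serbp1 went from -0.72 to -0.01 (0.000416) and Hnrnpl from -0.72 to -0.12 (0.00296). The early fall of Usp48, Serbp1 and Hnrnpl was therefore smaller at the later time, and that of Mplkip was no longer seen. Among the increases, Klf2 went from 0.54 to 1.55 (1.32e-05) and Sfn, a 14-3-3 protein, from 0.65 to 1.76 (4.27e-05). Ppm1d, a phosphatase that opposes p53 signalling, rose at T0 (0.70) and had -0.36 at T7 (0.000817). Brf2, Wtap and Aunip gave no such difference (interaction adjusted p = 0.262, 0.723 and 0.531). The T0 call of Ppm1d was lost without each of the 8 libraries in turn (adjusted p up to 0.0438). Serbp1, Sfn and Ppm1d were chosen after their values were seen.

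**Figure D4:**
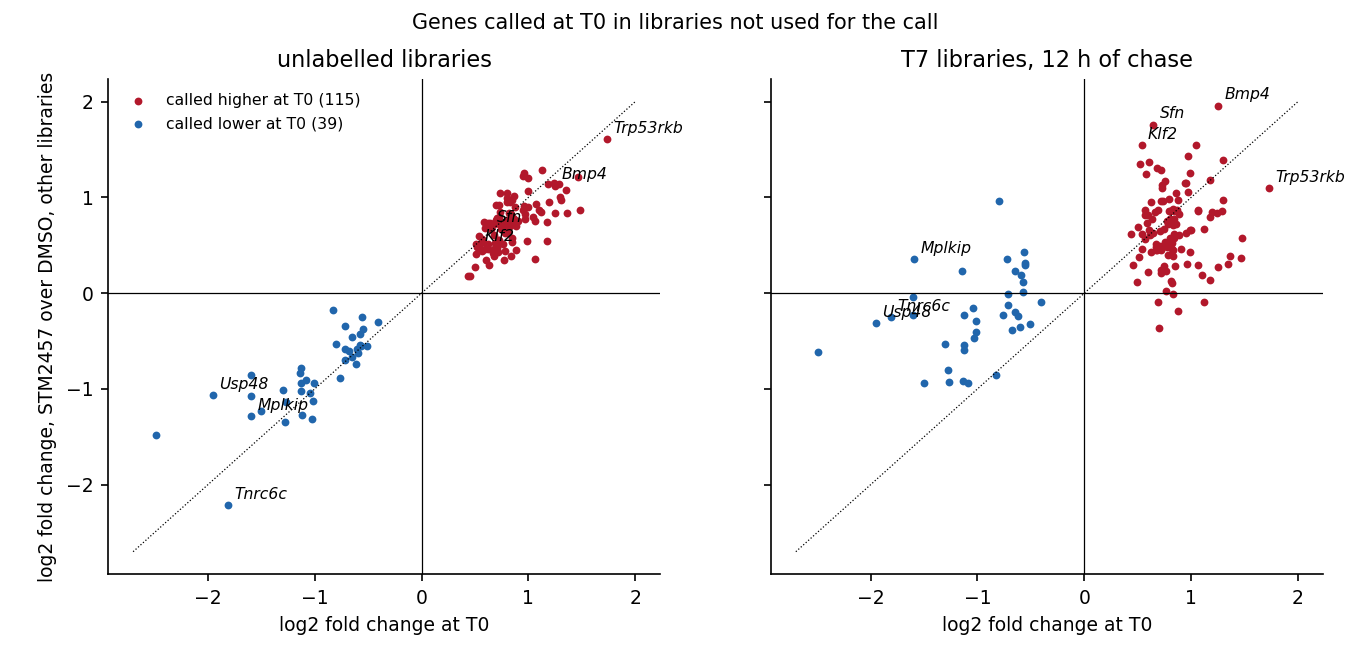
Each point is a gene called higher (red, 115) or lower (blue, 39) at T0, with its log2 fold change at T0 on the horizontal axis and that in the unlabelled (left) or T7 (right) libraries on the vertical axis, and the dotted line marks equal values. In the unlabelled libraries all points keep their sign, while at T7 28 of the 39 decreases do, with a median of -0.23.

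Incorporation of s4U over the 24 h of labelling had a slightly lower estimate with STM2457 in most genes. The shift did not pass a test between libraries, and no single gene passed the test. The converted share of covered T positions, taken as log odds for each of 8320 genes with a mean coverage of at least 1000 T, had a median log2 odds ratio of -0.12 between treatments. By limma, 0 of 8320 genes were called (0%) at an adjusted p under 0.05, with 92 higher and 402 lower at an unadjusted p under 0.05, and the smallest adjusted p was 0.16, or 0.0508 with the unlabelled rate subtracted. With edgeR on converted and unconverted counts, 0 were called and 541 had an unadjusted p under 0.05. After centring each library on its median, which moves the median of all genes to 0.00, the split at an unadjusted p under 0.05 was 212 higher and 177 lower, with 0 called. The rate over all genes was 1.28%, 1.43%, 1.40% and 1.37% with DMSO and 1.18%, 1.30%, 1.36% and 1.27% with STM2457 (exact permutation p = 0.114, two-sided, n = 4 a group). The rate of the median gene was 1.26%, 1.42%, 1.39% and 1.36% with DMSO and 1.16%, 1.26%, 1.33% and 1.25% with STM2457 (exact permutation p = 0.0857, two-sided, n = 4 a group). Both measures overlapped between groups, and both were lower with STM2457 in all 4 same-numbered pairs (exact sign-flip p = 0.125). Reads with a conversion made up 20.9%, 23.4%, 23.7% and 23.1% of reads with DMSO and 20.1%, 21.9%, 22.9% and 21.9% with STM2457, and these groups overlapped.

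Genes that rose in expression did not carry a uniformly different label. The median log2 odds ratio was -0.03 over the 115 genes called higher, 52 of them above 0, and -0.19 over 36 genes called lower with enough coverage, 5 of them above 0, beside -0.12 over all, with 2646 of 8320 above 0 (31.8%). Brf2 had conversion rates of 0.934, 0.808, 0.731 and 0.831% with DMSO and 1.07, 1.14, 0.988 and 1.05% with STM2457. Sar1a had 1.04, 1.67, 1.52 and 1.205% and 0.760, 1.21, 0.700 and 0.354% in the same order. Wtap had 1.46, 1.15, 1.19 and 1.43% and 1.17, 1.38, 0.984 and 1.33%, values that overlapped between groups.

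The genes named next were picked from those with the lowest p for incorporation, after their values were seen. Others with p as low are not named, and all failed the correction. Morn4, a protein of MORN repeats, had rates of 2.33, 2.35, 2.02 and 2.04% with DMSO and 0.768, 1.11, 0.955 and 0.962% with STM2457 (log2 odds ratio -1.21, adjusted p = 0.16). Socs1, an inhibitor of JAK-STAT signalling, had 2.13, 2.17, 1.92 and 2.28% and 1.04, 1.02, 1.25 and 1.14% (log2 odds ratio -0.95, adjusted p = 0.165). Pan3, a subunit of a deadenylase, had 1.797, 2.29, 1.76 and 1.78% and 1.08, 1.12, 0.993 and 1.12% (log2 odds ratio -0.83, adjusted p = 0.313). In each the treated libraries were all below the DMSO libraries. Sp5, a WNT-responsive factor, lay in the other direction, with 0.680, 0.800, 0.832 and 0.862% and 1.38, 1.77, 1.41 and 1.52% (log2 odds ratio 0.94, adjusted p = 0.641). Unlabelled libraries, in which conversions come from sequencing error and variants, had rates of 0.0818% with DMSO and 0.0824% with STM2457.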

How the data were processed

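The authors mapped 3′-end reads to GRCm38.p6 with SLAM-DUNK, after FastQC 0.11.8, and deposited collapsed tables with raw counts per gene of reads, multimapping reads, covered T positions and T-to-C conversions, without normalization. Expression used the read counts of the 8 T0 libraries with edgeR 4.0.16 in R 4.3.3 (filterByExpr, trimmed mean of M values, quasi-likelihood test, Benjamini-Hochberg adjusted p under 0.01). Incorporation used limma 3.58.1 with trend and robust variance on log2 odds with an offset of 0.5, for genes with at least 1000 covered T on average (adjusted p under 0.05). Alternatives were DESeq2 1.42.0, other scaling, filters and thresholds, reads without multimapping, a replicate block and leaving out each library. Library measures used exact permutation (70 arrangements) and, by replicate number, exact sign flips. Figures and lists used Python 3.11.15. The steps were tested on simulated data. Named genes were the 12 largest changes each way among called genes with mean CPM of at least 10 and under 50% multimapping reads, the 5 lowest p each way, up to 4 members per list (called first) and 9 fixed genes. Results for 2 genes are not reported here. Members and lists were chosen with earlier results of these data known.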

Additional observations from a re-analysis of the deposited data

Results flagged for a closer look

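Within groups of 4 libraries, 4 of 138 groups held a library far from the other 3, over 62 genes and the library measures, and chance gives about 1 in 20. Gal3st3 stood at 39.2 CPM in STM2457 replicate 3, with 25.99, 24.5 and 25.3 CPM in the others. Fkbpl stood at 19.3 CPM in DMSO replicate 3, with 15.8, 15.97 and 15.5 CPM in the others. Pou5f1 stood at 943 CPM in STM2457 replicate 2, with 898, 892 and 889.9 CPM in the others. Psma4 stood at 134 CPM in STM2457 replicate 4, with 173, 169.5 and 172 CPM in the others.

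For several called genes the effect of STM2457 differed between T7 and T0 by edgeR's interaction test, given here as the T7 minus the T0 log2 fold change. The difference was 1.66 for Usp48 (adjusted p = 4.75e-05), 1.96 for Mplkip (8.25e-05), 1.01 for Zfp207 (5.5e-05), 0.80 for Psma4 (0.00147) and 0.62 for Hnrnpl (0.00296), all lower at T0. It was 1.03 for Klf2 (1.32e-05) and 0.85 for Eif1a (0.00106), both higher at both times.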

How the results depend on the processing

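No called gene changed direction under any alternative in which it was tested. Without multimapping reads, 153 of the 154 were tested. The T0 count of 154 was 306 with DESeq2, 340 with no filter on low counts, 461 at an adjusted p under 0.05 and 457 with replicate number as a replicate block, and 63 to 183 when 1 library was left out. Other scalings, reads without multimapping, all 71 libraries fitted together and an added 1.5-fold limit gave between 134 and 213. In the unlabelled libraries the count of 107 was 216 with the replicate block, 302 with DESeq2 and 29 to 90 without 1 library. T1 gave 43 with DESeq2 in place of 0, and the T7 interaction gave 302 in place of 196 with the block. Of the 154 called genes, 53 kept their call without any 1 library. Under all alternatives in which they were tested, other than the 1.5-fold limit, 51 did. Pairing by replicate number was checked. Profiles of same-numbered DMSO and STM2457 libraries, relative to their groups, correlated at 0.0562, 0.0452, 0.0947 and 0.0447. Pairs of unlike number ranged from -0.152 to 0.127, most of them below 0, and 2 correlated more, at 0.127 and 0.117. Multimapping shares were close between same numbers, at 27.96, 27.19, 27.04 and 26.43% with DMSO and 27.97, 26.93, 27.24 and 26.52% with STM2457. The labels do not say whether numbers pair, and these values do not settle it. The main tests were unpaired. List medians changed sign under other scalings for cytosolic ribosomal proteins, the Trim and Rnf ligases, the FGF-ERK response, neural markers, nonsense-mediated decay, cadherins, solute carriers and ubiquitin-specific proteases. Leaving out 1 library also moved list medians. Oxidative phosphorylation, for example, had -0.003 without DMSO replicate 1, and the S-adenosylmethionine cycle -0.04 without DMSO replicate 3. The s4U test called 0 genes under each alternative.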
